A study of Homo sapiens with 3 samples.

Results

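The HOX clusters A to D hold the genes of the HOX family, which in humans lie in separate blocks on chromosomes 7, 17, 12 and 2. They were examined here as genomic regions that the PRCC-TFE3 fusion protein could occupy. The members were all ChIP-seq peaks that overlapped fixed bounds on the hg19 build, namely chr7:27130000-27250000 for HOXA, chr17:46600000-46810000 for HOXB, chr12:54330000-54450000 for HOXC and chr2:176955000-177056000 for HOXD. The bounds used no measured value and enclosed 551 kb. The 38 HOX genes of the member list were 10 in HOXA (HOXA2 to HOXA7, HOXA9, HOXA10, HOXA11 and HOXA13), 10 in HOXB (HOXB1 to HOXB9 and HOXB13), 9 in HOXC (HOXC4 to HOXC6 and HOXC8 to HOXC13) and 9 in HOXD (HOXD1, HOXD3, HOXD4 and HOXD8 to HOXD13). Without an hg19 annotation in the sources used here, peaks were placed along each cluster by coordinate and were not assigned to single genes. The ChIP lists and the input list together held 338574 peaks, of which 245 were members.

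HK-2 is an established line of immortalised human proximal tubule cells. The line used here carried an HA-tagged PRCC-TFE3 fusion gene whose expression depends on doxycycline, as the labels give it (the methods of the study call the ChIP cells HA-TFE3), and all cells, those for input DNA included, had received doxycycline at 0.2 µg/mL for 24 h. The anti-HA precipitation, on cross-linked chromatin that micrococcal nuclease had cut, gave 2 HA-PRCC-TFE3 ChIP libraries (replicate 1 and replicate 2) beside 1 input DNA library. Input DNA served as the sole background, since neither uninduced nor untagged cells were analysed here, and the fusion was measured as an introduced, tagged protein and not at the level that a tumour makes.

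HOX genes encode homeodomain transcription factors that give cells their position along the body axis. Within each cluster they stand in the order in which they are used along that axis, from the end with the low-numbered paralogue groups (anterior) to the end of group 13 (posterior), and members of a paralogue group in different clusters share ancestry and often function. The posterior genes of group 11 are known for the induction of the developing kidney, and adult kidney epithelium keeps part of its HOX expression. PRCC-TFE3 is a fusion found in TFE3-rearranged renal cell carcinoma that keeps the DNA-binding part of TFE3, a member of the MiT/TFE family, which binds the E-box CACGTG and prefers a T before it or an A after it.

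RefSeq promoter sequences on the GRCh38.p14 build, from 250 bases before to 50 bases after an annotated start, were at hand for 20 of the 38 genes, in 26 distinct windows. The genes with no entry were HOXA5, HOXB2 to HOXB9, HOXB13, HOXC6, HOXC8 to HOXC13 and HOXD9. CACGTG, which reads the same on both strands, occurred in 9 of the 26 HOX windows (34.6%) and in 2526 of all 34943 promoter windows (7.23%, or 8.31% for protein-coding genes). The 9 genes were HOXA3, HOXA4, HOXA7 and HOXA9 in HOXA and HOXD1, HOXD3, HOXD10, HOXD11 and HOXD13 in HOXD. By cluster, the E-box was present in 4 of 16 HOXA windows and 5 of 8 HOXD windows, and was not found in the single window of HOXB or of HOXC. The longer form TCACGTG, searched on both strands and always overlapping CACGTG, occurred in 6 of the 26 windows (23.1%) against 3.69% of all windows. The unspecific form CANNTG was about as frequent in HOX windows (73.1%) as in all windows (68.7%), and the median GC content was 58% and 58.7%. Windows of neighbouring starts can share bases, and a match is a description of letters and not of a bound site.

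The 6 stretches with the longer form are shown because they carry the sequence that the MiT/TFE family is known to bind, within the promoters of HOX genes. Each is given 5′ to 3′ on the strand of the gene, with CACGTG in capitals. Up to 50 bases on each side are shown, cut at the annotated start. In HOXA7 the E-box itself runs past the start, and the stretch ends with the E-box. The first base of the E-box lay 51 bases before the start of HOXA3 (chr7:27118358-27118458, minus strand), a regulator of thymus and parathyroid formation. It lay 5 bases before the start of HOXA7 (chr7:27156675-27156730, minus strand) and 71 bases before that of HOXA9 (chr7:27165553-27165658, minus strand), a regulator of blood stem cells. In HOXD the distances were 47 bases for HOXD3 (chr2:176157210-176157306, plus strand), 106 bases for HOXD10 (chr2:176116622-176116727, plus strand) and 90 bases for HOXD11 (chr2:176107140-176107245, plus strand), a group 11 gene of limb and kidney development. These coordinates are of GRCh38.p14 and cannot be set beside the peak coordinates, which are of hg19.
HOXA3: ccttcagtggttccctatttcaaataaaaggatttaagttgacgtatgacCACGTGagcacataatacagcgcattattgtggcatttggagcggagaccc
HOXA7: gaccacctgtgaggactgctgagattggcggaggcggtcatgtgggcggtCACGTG
HOXA9: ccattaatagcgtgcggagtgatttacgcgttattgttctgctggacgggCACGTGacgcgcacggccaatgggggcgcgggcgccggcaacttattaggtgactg
HOXD3: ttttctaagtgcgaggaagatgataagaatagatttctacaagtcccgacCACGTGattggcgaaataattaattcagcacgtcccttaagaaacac
HOXD10: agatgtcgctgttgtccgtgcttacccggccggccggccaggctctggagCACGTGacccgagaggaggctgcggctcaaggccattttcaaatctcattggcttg
HOXD11: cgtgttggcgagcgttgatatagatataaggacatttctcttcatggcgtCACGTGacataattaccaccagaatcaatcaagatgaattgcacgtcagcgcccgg
The other 3 promoters with CACGTG, those of HOXA4, HOXD1 and HOXD13, had another base in both flanking positions. Whether any of these promoters held a peak was not analysed here, and the lists hold no expression values by which HOX expression or the tubule identity of the cells could be checked.

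Replicate 1 held 12235754 sequence tags and replicate 2 held 7418533, so replicate 1 could resolve weaker peaks. Each ChIP library had a MACS narrowPeak list (109205 and 81300 peaks) and a BED list of narrower peaks with tag counts (84248 and 63535 peaks), whose peak caller is not given in the sources used here. Tag counts of matched BED peaks with 50 tags or more spread no more than counting error would predict (dispersion 0.942 over 15954 peaks, where 1 is counting error alone). For the 33 matched peaks of the HOX clusters at any depth the value was 0.534. Many of these held few tags and had to pass the caller in both libraries, which can narrow the spread. Their value is therefore no measure of agreement between the libraries. The study calls the libraries biological replicates, and the labels do not say whether they came from separate cultures. The SDs below measure the spread between these 2 libraries. With 2 libraries an exact paired permutation cannot go below p = 0.5, and no test was made. Intervals are exact 95% intervals and cover counting error only.

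The HOX clusters held 83 narrowPeak peaks in replicate 1 and 65 in replicate 2, which was 0.076% and 0.080% of the lists. The BED lists held 53 and 44 peaks, with 1009 and 625 tags. Peaks were unevenly spread over the clusters: HOXA was the densest and HOXB followed, HOXC and HOXD held fewer peaks per kb, HOXC held the strongest peak, and nearly all peaks of HOXD lay on its posterior side. The input list held 286 peaks and none lay in the clusters or within 500 kb of them. With so few input peaks over the genome, most stretches of this length would hold none, so their absence does not set the clusters apart.

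**Figure D1:**
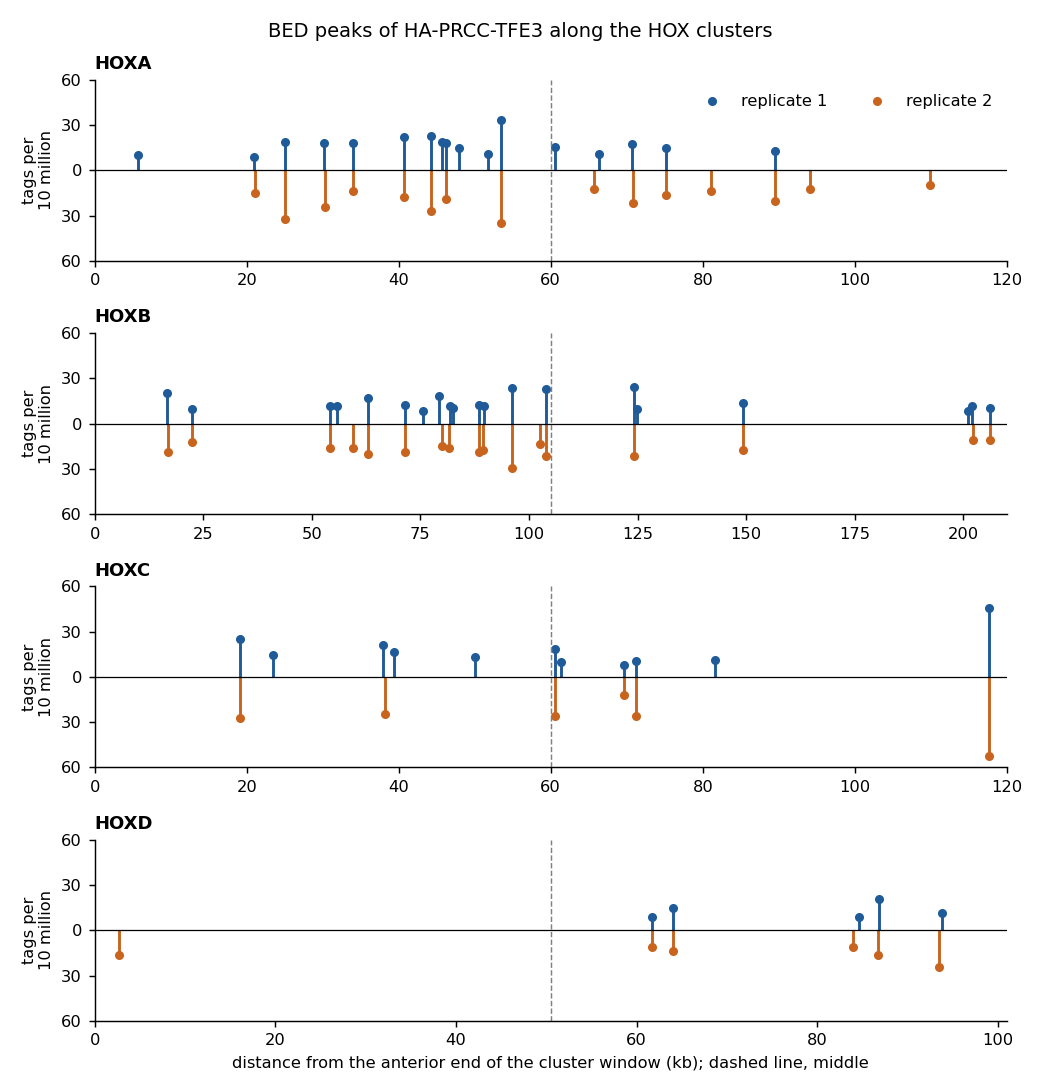
BED peaks along the HOX clusters. The horizontal axis is the distance in kb from the anterior end, each stem is 1 peak, and its height is the tags per 10000000 tags of the library, upwards for replicate 1 and downwards for replicate 2; the dashed line is the midpoint. HOXA and HOXB carry peaks on both sides, the highest stem is the HOXC peak of 45.8 and 52.6 at the posterior edge, and HOXD is empty on its anterior side but for 1 peak of replicate 2.

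HOXA held 31 narrowPeak peaks in replicate 1 (95% interval 21.1 to 44) and 24 in replicate 2 (15.4 to 35.7). Its density was 0.258 and 0.200 peaks per kb, with a mean of 0.229 ± 0.0412 (SD, n = 2). Over chromosomes 1 to 22 and X the density was 0.0360 and 0.0268 peaks per kb. HOXA was therefore the densest of the 4 clusters in both libraries, by narrowPeak peaks and by tags.

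HOXB held 31 peaks in replicate 1 (21.1 to 44) and 26 in replicate 2 (17 to 38.1) over 210 kb. Its density was 0.148 and 0.124 peaks per kb (mean 0.136 ± 0.0168, SD, n = 2), which lay below both values of HOXA and above both values of HOXC and HOXD. In the BED lists HOXB had 0.0952 and 0.0810 peaks per kb, which overlapped 0.0917 and 0.05 in HOXC.

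HOXC held 14 peaks in replicate 1 (7.65 to 23.5) and 8 in replicate 2 (3.45 to 15.8). Its density was 0.117 and 0.0667 peaks per kb (mean 0.0917 ± 0.0354, SD, n = 2). HOXD held 7 peaks in each replicate (2.81 to 14.4), or 0.0693 peaks per kb. The values of HOXD fell between those of HOXC, so the order of these 2 clusters was not resolved.

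Tags in BED peaks, scaled to 10000000 tags of the library, also placed HOXA first but did not resolve the order of HOXB and HOXC. HOXA carried 349 tags in replicate 1 and 214 in replicate 2, or 2.38 and 2.40 scaled tags per kb (mean 2.39 ± 0.0184, SD, n = 2). HOXB carried 342 and 219 tags, or 1.33 and 1.41 scaled tags per kb. HOXC carried 239 and 124 tags, or 1.63 and 1.39 scaled tags per kb, which overlapped the values of HOXB although HOXC held fewer peaks. HOXD carried 79 and 68 tags, or 0.638 and 0.909 scaled tags per kb. The genome average of this measure was 0.490 and 0.458, below the values of all 4 clusters in both libraries.

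**Figure D2:**
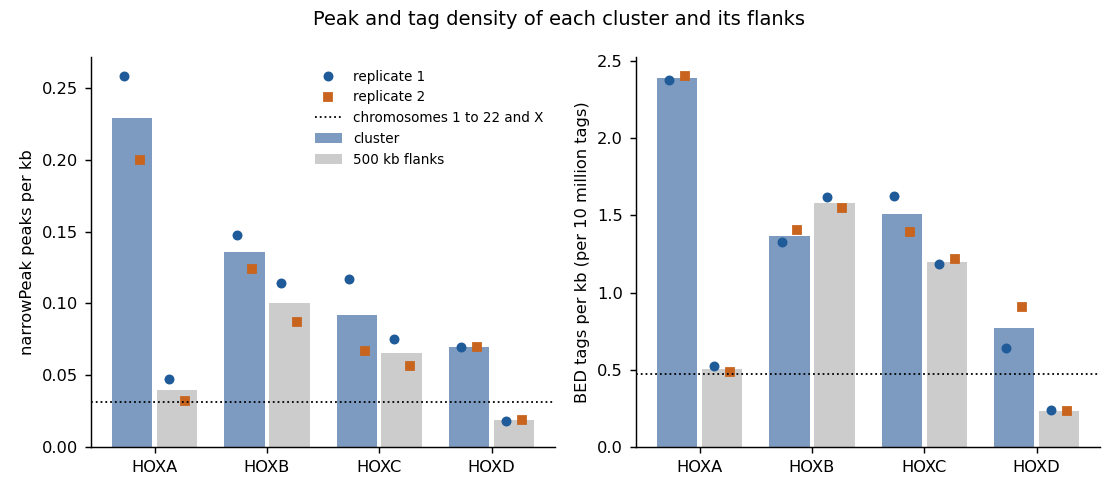
Peaks per kb and scaled tags per kb (tags per 10000000 tags of the library) in each HOX cluster and over its 500 kb flanks. Points are libraries, bars are their means and the dotted line is the mean over chromosomes 1 to 22 and X. HOXA has the highest bar of the 4 clusters on both measures, and only for HOXB is the tag bar of the flanks above that of the cluster.

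The clusters differed in how far they stood out from their own surroundings. Over the 500 kb on each side, HOXA had 47 and 32 narrowPeak peaks, so that its density was 5.50 and 6.25 times that of its flanks (mean 5.87 ± 0.533, SD, n = 2). The flanks of HOXD were sparse, with 18 and 19 peaks, and HOXD reached 3.85 and 3.65 times their density (mean 3.75 ± 0.143). Thus HOXD, the cluster with the fewest peaks, still held more peaks per kb than its neighbourhood.

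HOXB lay in a region that was itself rich in peaks, with 114 and 87 peaks in its flanks, and its density ratio was only 1.295 and 1.42 (mean 1.36 ± 0.0905). By scaled tags the ratio of HOXB was 0.821 and 0.910, below 1, and with narrowPeak peaks of q below 1e-05 its peak density ratio was 1.01. HOXC, with 75 and 56 flank peaks, had a ratio of 1.56 and 1.19 (mean 1.37 ± 0.259), and by tags 1.37 and 1.15. By tags the ratio was 4.55 and 4.93 for HOXA and 2.70 and 3.92 for HOXD. With flanks of 1000 kb on each side the tag ratio of HOXA was lower, at a mean of 2.93.

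The flank beyond the anterior end held more narrowPeak peaks than the flank beyond the posterior end around every cluster. Around HOXA the numbers were 31 and 16 in replicate 1 and 22 and 10 in replicate 2, and around HOXB they were 60 and 54, and 45 and 42. Around HOXC they were 42 and 33, and 33 and 23. Around HOXD they were 12 and 6, and 14 and 5, so that HOXD, whose own peaks lay on the posterior side, had the fewer flank peaks on that side.

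**Figure D3:**
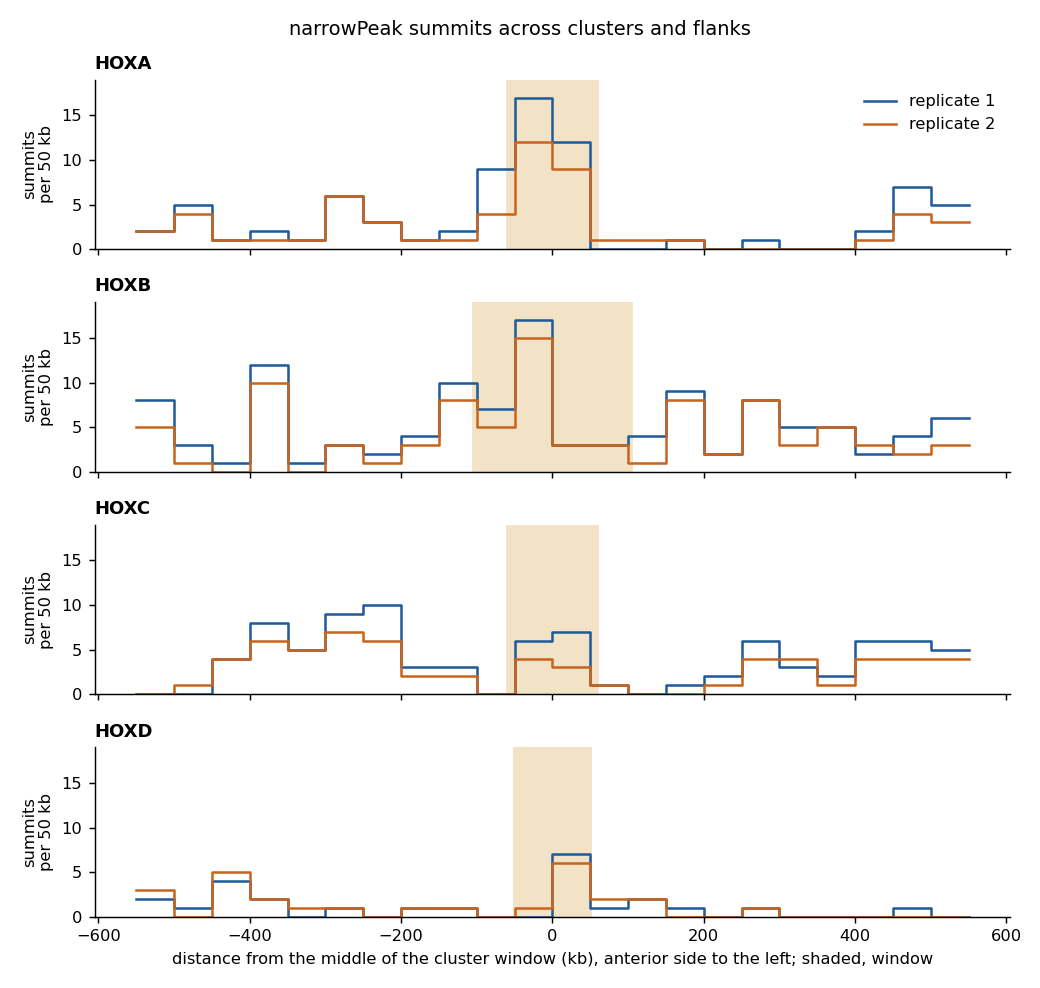
Summits of narrowPeak peaks per 50 kb bin around the centre of each HOX cluster, against the distance from that centre in kb, with the anterior side to the left. HOXA stands as a peak above a low surrounding, and HOXB lies within a region of high counts.

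All consecutive windows of the same length on chromosomes 1 to 22 and X served as a further background. Of 25282 windows of 120 kb, 0.127% in replicate 1 and 0.253% in replicate 2 held at least as many summits as HOXA. For HOXB, with windows of 210 kb, the shares were 1.86% and 1.65%. With BED peaks the shares were larger, 0.775% and 0.68% for HOXA and 3.86% and 3.5% for HOXB. For HOXC they were 6.34% and 13.4%, and for HOXD, with windows of 101 kb, 20.1% and 13.1%. HOXA thus held a number of summits that few windows reached, whereas a number like that of HOXD was common.

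**Figure D4:**
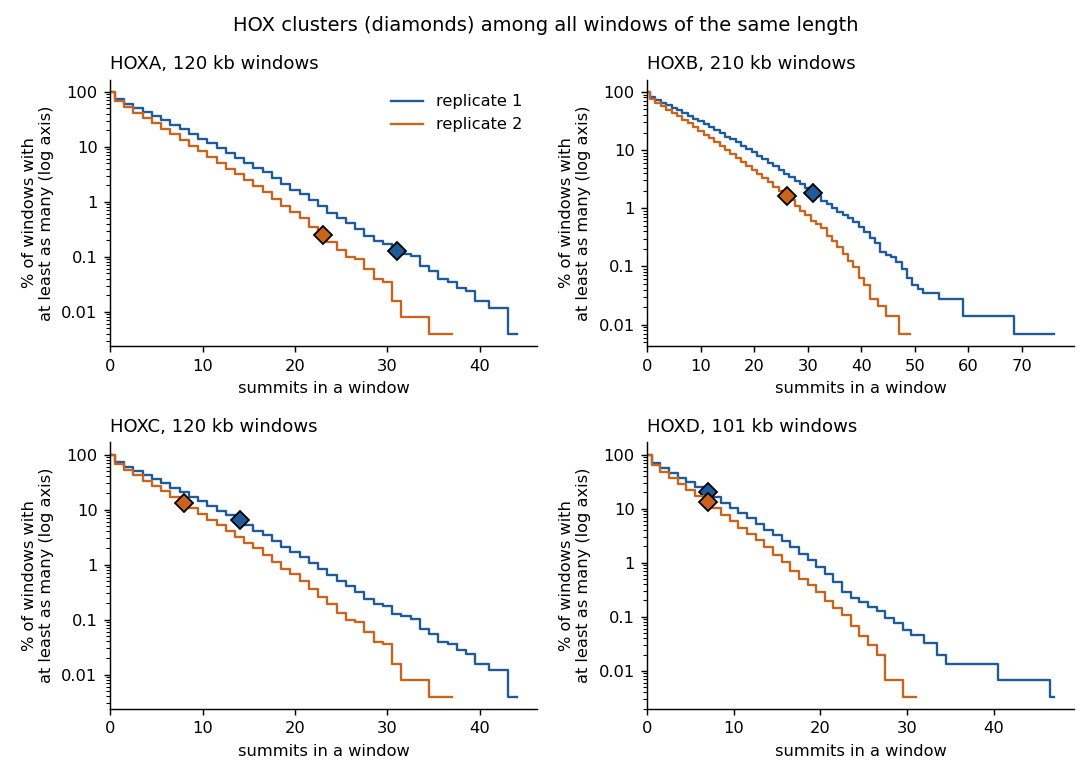
Share of all genome windows (log axis, percent) with at least the number of summits on the horizontal axis, for windows as long as each HOX cluster. Lines are libraries and diamonds mark the cluster, which for HOXA lie at 0.127% and 0.253%.

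Each cluster was then divided at its midpoint into an anterior and a posterior side, and peaks were placed by their summits. In HOXA, 19 of 31 summits in replicate 1 (61.3%, 95% interval 42.2 to 78.2) and 14 of 23 in replicate 2 (60.9%, 38.5 to 80.3) lay on the anterior side, the side of HOXA2, a gene of hindbrain and pharyngeal arch patterning. In HOXB, 24 of 31 (77.4%, 58.9 to 90.4) and 20 of 26 (76.9%, 56.4 to 91) were anterior. The posterior side of the HOXB bounds holds the long stretch that separates HOXB13 from the other HOXB genes. These intervals count each summit as independent, which close peaks need not be. They are therefore no test of an even split, and those of HOXA are wide enough to include 50%.

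HOXC showed no clear side, with 6 of 14 (42.9%, 17.7 to 71.1) and 4 of 8 summits (50%, 15.7 to 84.3) anterior. With the middle 10% of the cluster left out, its mean share was 58.3%, so the side that held more peaks depended on the summits near the midpoint. In HOXD the posterior side held nearly all summits. None of its 7 summits in replicate 1 (interval 0 to 41%) and 1 of 7 in replicate 2 (14.3%, 0.361 to 57.9) lay on the anterior side. The interval of replicate 2 includes 50%, and with 7 summits neither interval is a test of the side.

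Tags in BED peaks followed the same sides in HOXA, HOXB and HOXD. In HOXC replicate 2 most tags were posterior. Its narrowPeak summits were evenly divided, but of its BED peaks 2 were anterior and 4 posterior. A single BED peak at the posterior edge held 52.6 of the 115.9 posterior scaled tags. The anterior side carried 75.1% and 63.6% of the tags in HOXA, 71.9% and 79.5% in HOXB, 46.5% and 30.7% in HOXC, and 0% and 17.6% in HOXD. HOXA and HOXB thus carried most of their tags on the anterior side of their bounds, and HOXD on the posterior side, the side of HOXD13, a regulator of digit formation. The sides are parts of the bounds and were not matched to paralogue groups.

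The longest stretch without a narrowPeak peak of either replicate was 13.4 kb in HOXA (chr7:27137523-27150895, 11.1% of the cluster). It was 31.5 kb in HOXB (chr17:46622648-46654105, 15%) and 33.5 kb in HOXC (chr12:54332652-54366155, 27.9%). In HOXD it reached 58.7 kb (chr2:176994506-177053189), or 58.1% of the cluster. The stretch in HOXD ran from 2.81 to 61.5 kb from the anterior end and so took up most of the anterior side.

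Coordinates of named regions are those of the narrowPeak peaks of both replicates merged, and tags are those of the BED peaks within them. Input tags are counts of the input library, which was deeper than either ChIP library. An input tag counted as 0.564 tags of replicate 1 and 0.342 tags of replicate 2. Tags and input tags are therefore not on the same scale. In each cluster 3 regions shared by the BED lists were taken by the lower of their scaled tags in the replicates. In HOXA all 3 lay on the anterior side. The region chr7:27183211-27183659, 53.4 kb from the anterior end, held 41 tags in replicate 1 and 26 in replicate 2 with 0 input tags, which was 33.5 and 35 scaled tags, and its narrowPeak fold enrichment was 21.1 and 16.7. The region chr7:27174008-27174363 held 28 and 20 tags against 2 input tags (22.9 and 27 scaled), and chr7:27154770-27155236 held 23 and 24 tags against 0 and 1 input tags (18.8 and 32.3 scaled). The scaled values of the first region differed little between the libraries, while those of the last differed by the most.

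In HOXB the 3 regions lay near the middle of the bounds. The region chr17:46695944-46696276, 96.1 kb from the anterior end, held 29 and 22 tags against 1 input tag, or 23.7 and 29.7 scaled tags. The region chr17:46723940-46724415, on the posterior side, held 30 and 16 tags with 0 input tags (24.5 and 21.6 scaled). The region chr17:46703781-46704249 held 28 and 16 tags against 2 input tags (22.9 and 21.6 scaled). The first had the highest scaled tags of HOXB in replicate 2 and the second in replicate 1, and no HOXB region reached the highest of HOXA.

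The strongest peak of all 4 clusters lay in HOXC, at chr12:54332037-54332651, 118 kb from the anterior end and so at the posterior edge, where HOXC13 is the outermost gene. HOXC13 is known for its part in hair and nail formation. The region held 56 tags in replicate 1 (95% interval 42.3 to 72.7) and 39 in replicate 2 (27.7 to 53.3), with 0 input tags, which was 45.8 and 52.6 scaled tags. Its narrowPeak fold enrichment was 28.4 and 23.8, and it ranked 1982 of 84248 and 2061 of 63535 BED peaks by scaled tags. It stood at the end of the longest stretch of HOXC without a peak. The next HOXC regions were chr12:54430518-54431008, 19.1 kb from the anterior end, with 31 and 20 tags (25.3 and 27 scaled), and chr12:54389247-54389596 with 23 and 19 tags (18.8 and 25.6 scaled).

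In HOXD the region chr2:176968996-176969323, 86.8 kb from the anterior end, held 25 and 12 tags (20.4 and 16.2 scaled), against 0 and 3 input tags. The region chr2:176991799-176992107 held 18 and 10 tags (14.7 and 13.5 scaled), and chr2:176994159-176994505 held 11 and 8 tags (8.99 and 10.8 scaled). All 3 lay on the posterior side. The other HOXD peaks of the BED lists were seen in 1 replicate each. The highest of these was chr2:176962353-176962565 in replicate 2, with 18 tags (24.3 scaled), and replicate 1 had a peak beside it at chr2:176962039-176962247 with 11.4 scaled tags. Both fell in the narrowPeak region chr2:176962023-176962652, which was shared.

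The remaining single-replicate peaks of HOXD were at chr2:176971216-176971424 in replicate 1 with 8.99 scaled tags, chr2:176971966-176972178 in replicate 2 with 10.8 and chr2:177053220-177053432 in replicate 2 with 16.2. The last was the only peak of HOXD on the anterior side, at the edge where HOXD1 is the outermost gene. It held 12 tags against 3 input tags, which after scaling for depth was a fold of 11.7 over input.

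Merged over both replicates, the narrowPeak peaks formed 89 regions, of which 57 had a peak in both libraries (64.0%), 24 in replicate 1 alone and 8 in replicate 2 alone. Over the whole lists 59.8% of regions were shared. HOXA had 21 shared of 33 regions, HOXB 23 of 34, HOXC 8 of 14 and HOXD 5 of 8. In the BED lists 33 of 64 HOX regions (51.6%) were shared, against 60.4% over the whole lists.

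Of the 83 HOX peaks of replicate 1, 59 (71.1%, 60.1 to 80.5) overlapped a peak of replicate 2, against 65.3% of the whole list. Of the 65 of replicate 2, 57 (87.7%, 77.2 to 94.5) overlapped a peak of replicate 1, against 88.5%. Both intervals included the share of the whole list. The 33 BED peaks matched between replicates took 41.8% of their tags from replicate 2, against 40.2% over all matched peaks with 50 tags or more.

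Peak strength differed between the clusters and with the measure. The median narrowPeak fold enrichment was 6.89 and 6.56 in HOXA, 6.23 and 6.47 in HOXB, 8.41 and 10.6 in HOXC and 7.18 and 6.52 in HOXD, against 7.49 and 7.32 over the whole lists. Medians of HOXC lay above the list in both libraries, and those of the other clusters lay below it. Against the 500 kb flanks the reading differed. Flank medians in replicates 1 and 2 were 6.225 and 6.417 for HOXA, below the cluster in both. They were 7.001 and 6.417 for HOXD, slightly below the cluster in both. The flanks of HOXB had 8.024 and 8.184, above the cluster in both. Those of HOXC had 9.576 and 8.567, above the cluster in replicate 1 and below it in replicate 2. By scaled tags of BED peaks, however, the median of HOXA was 1.12 times that of its list (mean of both libraries), against 0.908 by fold enrichment, so the direction for HOXA depended on the measure. In all, 34 of 83 peaks (41.0%) and 28 of 65 (43.1%) exceeded the median of their list, where ties leave 49.2% and 50% of the list above it. A narrowPeak peak of the HOX clusters overlapped a BED peak of the same library in 52 of 83 (62.7%) and 39 of 65 cases (60%), below 74.6% and 74.9% of the whole lists. Peaks with q below 1e-05 were 61 of 83 (73.5%) and 44 of 65 (67.7%), against 82.4% and 78.2% of the lists.

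The strongest peaks of the clusters did not exceed those around them, except for HOXD in replicate 2. The flanks held more peaks than the cluster in every case, which by itself favours a higher maximum. These maxima therefore do not show that peaks in the clusters were weaker. The highest fold enrichment was 21.1 and 16.7 in HOXA against 31.6 and 37.2 in its flanks, and 13.9 and 14.5 in HOXB against 33.0 and 31.8. It was 28.4 and 23.8 in HOXC against 33.7 and 28.9, and 10.3 and 12.2 in HOXD against 19.8 and 10.9.

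**Figure D5:**
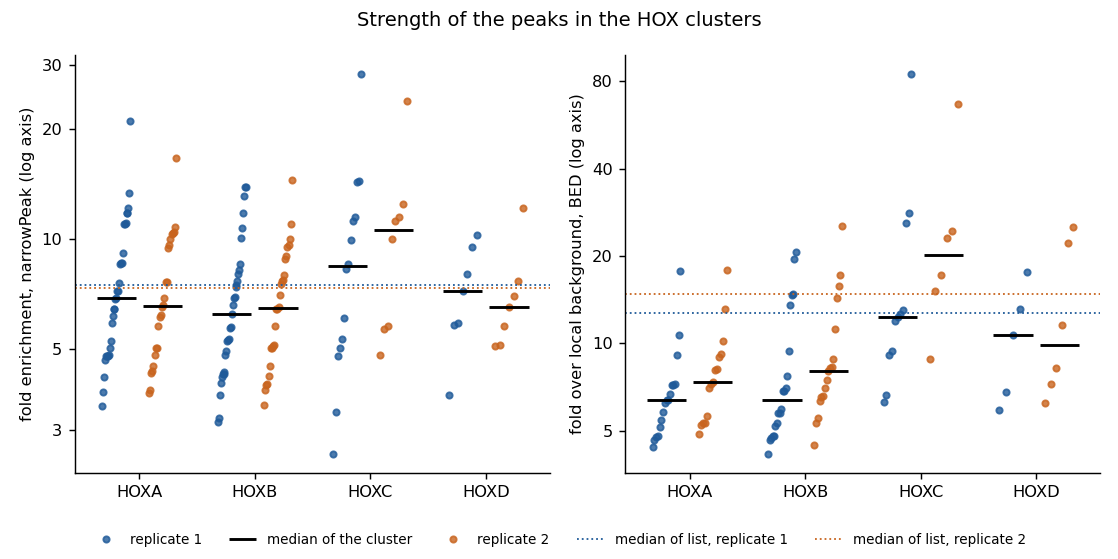
Fold enrichment of narrowPeak peaks and fold of BED peaks over the local background (both log axes) in each HOX cluster. Points are peaks, black bars are medians of the cluster and dotted lines are medians of the list. HOXA and HOXB lie low on the local fold, and HOXC holds the highest peak on both measures.

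The fold of a BED peak over the tags around it was lower in HOXA and HOXB than in HOXC and HOXD. Its median was 6.38 and 7.35 in HOXA and 6.40 and 8.03 in HOXB, against 12.8 and 14.8 over the lists, whose lowest value was 4. In HOXA, 16 of 17 peaks in replicate 1 and 14 of 15 in replicate 2 were below the median of the list, and in HOXB 15 of 20 and 14 of 17, where 49.9% and 49.8% of the lists were below it. HOXC had 12.3 and 20.1, below the list in replicate 1 and above it in replicate 2. HOXD had 10.7 and 9.89, below the list in both. In the 500 kb flanks the median was 12.1 and 14.8 for HOXA and 9.17 and 11.7 for HOXB. It was 12.4 and 14.2 in the flanks of HOXC and 15.1 and 14.7 in those of HOXD.

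The median spacing of narrowPeak summits was 2081 and 3893 bp in HOXA, 2853.5 and 2374 bp in HOXB, 4291 and 9808 bp in HOXC and 1812 and 4525.5 bp in HOXD. Spacing of BED peaks was not measured. For BED peaks with no other within 5 kb, the median local fold in HOXB was 12.1 and 14.4 over 6 and 7 peaks, against 16.9 and 19.01 over all such peaks of the lists. In HOXA it was 6.38 and 6.34 over 3 and 4 peaks, about as low as with all its peaks. The few separate peaks had medians of 26.0 over 3 peaks and 20.1 over 4 in HOXC, while in HOXD 1 peak had 13.2 and 2 peaks had a median of 23.7.

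Input tags were few. The BED peaks of the clusters held 48 input tags in replicate 1 (0.906 per peak) and 52 in replicate 2 (1.18 per peak), against 0.874 and 0.876 per peak over the lists. Input per peak was 1.24 and 1.27 in HOXA, 0.8 and 1 in HOXB, 0.636 and 0.333 in HOXC and 0.8 and 2.33 in HOXD. No input tag was seen at 24 of 53 and 16 of 44 peaks, against 46.1% and 46.9% of the lists.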

How the data were processed

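The authors called peaks in each sample separately. Their methods name MACS (Strand NGS) against input DNA, which matches the layout of the narrowPeak lists. Those methods also state a stringent p-value threshold for binding sites. The lowest −log10 q of the narrowPeak lists was 1.31 in replicate 1 and 1.35 in replicate 2. Whether that threshold was applied to these lists is not stated. The columns of the BED lists are ordered as in HOMER findPeaks output, a caller that the methods do not name. The submitters' processing notes name hg19. The aligner and the handling of duplicates are not given in the sources used here. In the deposited narrowPeak lists each peak had a score, a fold enrichment ratio and −log10 p and q values. The deposited BED lists were read by position, since their header was displaced, and held a score, a whole tag count, a normalised signal (tags per 10000000), a scaled input signal, ratios over input and over local background, a p-value for each ratio, a clonal ratio and a focus ratio, which is a fraction. Their coordinates are printed as deposited. Library totals were recovered from tag counts over normalised tags. The lowest scaled input values were assumed to be a constant that stands for 0 input tags. The value of an input tag was set from that constant. On this assumption each scaled input value was either a whole number of input tags or the constant, which applied to 46.1% and 46.9% of BED peaks.

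Peaks were members when they overlapped the bounds by at least 1 bp. Numbers of peaks have exact Poisson intervals and shares exact binomial intervals. Flanks were 500 kb on each side. Gene order, from RefSeq on GRCh38.p14, gave only the orientation of each cluster. All 38 genes were named, and of the peaks, in each cluster the 3 shared BED regions with the highest lower value of both replicates, the highest BED peak of either replicate, and all regions seen in 1 replicate where there were at most 5. The members, lists and rules were chosen with earlier results of these data known, and the counts of promoter E-boxes and the folds over local background were added after the data were seen. Scripts ran in Python 3.11.15 with numpy 2.4.6, pandas 2.3.3 and scipy 1.17.1 and were tested on simulated data. Peaks at single genes, E-boxes within peaks, paralogue groups and HOX cofactors were not analysed here.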

Additional observations from a re-analysis of the deposited data

How the results depend on the processing

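Of 172 alternative values, 131 stayed within the tolerance of their kind and 41 moved beyond it. The tolerance was 1 SD of the replicates for means, 1.5 times for peak densities and numbers of regions, and the 95% interval for recovery and promoter shares. HOXA crossed its list median in strength by tags, and HOXC crossed 50% in its anterior share. No paired analysis was possible because the ChIP libraries form 1 group and the input library has no replicate number. Leaving out 1 library returns the value of the other, which lies within 1 SD by construction, and these values are among the 131. The values below are means over both libraries, HOXA first.

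With BED lists in place of narrowPeak lists, the density was 0.133 peaks per kb in HOXA and 0.0881 in HOXB, the anterior share was 62% in HOXA, 73.2% in HOXB and 39.4% in HOXC, and the density ratio over the flanks was 4.78 in HOXA, 1.16 in HOXB and 3.36 in HOXD. The share of windows at or above the cluster was 0.728% for HOXA and 3.68% for HOXB, shared regions numbered 33, and 75% of replicate 2 peaks were found in replicate 1. With q below 1e-05 the density of HOXB was 0.0905, its ratio over the flanks 1.01, and the anterior share 68.2% in HOXA, 80.1% in HOXB and 53.6% in HOXC. With the middle 10% left out, the anterior share was 74.5% in HOXB and 58.3% in HOXC, and that of tags in HOXB was 70%.

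With 250 kb flanks the peak density ratio was 1.62 in HOXB and 4.33 in HOXD, and the tag ratio 5.16 in HOXA and 4.84 in HOXD. With 1 Mb flanks the peak density ratio was 4.34 in HOXA and 1.51 in HOXB, and the tag ratio of HOXA was 2.93. BED peaks that also overlapped a narrowPeak peak gave 2.29 scaled tags per kb in HOXA and 1.29 in HOXB. Median strength over the list median was 0.847 in HOXA and 0.806 in HOXB by −log10 p, and 1.12 in HOXA, 0.91 in HOXB and 0.834 in HOXD by BED tags, so that HOXA lay above its list by tags and below it by fold (0.908). With windows of at least 1 peak only, the shares were 2.13% for HOXB and 23.1% for HOXD. With lists cut to equal numbers of peaks, the shares found in the other replicate were 85.7% and 72.3% for replicates 1 and 2. Local fold of peaks with no other within 5 kb, chosen after seeing the data, was 13.2 in HOXB, 23.1 in HOXC and 18.4 in HOXD. The cause of these changes was not tested. With 7 peaks in HOXD and 8 to 14 in HOXC, the intervals of their densities and sides are wide.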
